A study of Homo sapiens with 9 samples.

Results

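The 53 genes described here build and drive mitosis and the segregation of chromosomes. They were chosen by name as a functional group, with earlier results of these data known. For each gene the brightest probe set, by mean level over the 9 arrays, was taken from those annotated to that gene alone. All 53 had one, of 19775 genes with such a probe set. The RNA came from MDA-MB435S, a human melanoma cell line grown in DMEM with serum, and was hybridised to Affymetrix U133 Plus 2.0 arrays. WWOX cells expressed wild-type WWOX, a tumor suppressor that binds partner proteins through its WW domains. WFPA cells expressed WWOX with the WFPA mutation in its first WW domain, and EV cells carried the empty vector, with 3 arrays in each group. The labels describe lentiviral stable clones selected with G418, and no source says whether the 3 arrays of a group came from separate cultures or how many clones they represent. The p-values therefore measure the spread between arrays, which may be technical, and a difference between clones cannot be told apart from a difference between constructs.

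GEO titles set the groups, because the characteristic that names the vector says WT WWOX for arrays titled EV(wox+) and names no insert for those titled wox5. The brightest WWOX probe set followed the titles, at log2 10.66 ± 0.28 in WWOX cells, 10.24 ± 0.12 in WFPA cells and 8.94 ± 0.28 in EV cells (SD, n = 3 each). Of the 5 WWOX probe sets, 3 had every EV array below all WWOX and WFPA arrays, 1 was near the same level in the 3 groups, and the second brightest went the other way, at 8.87 in WWOX cells, 8.38 in WFPA cells and 9.11 in EV cells. Of 9 melanocytic markers measured, 4 were below the array's median probe set in WWOX cells, 5 in WFPA cells and 6 in EV cells. The pigment genes MLANA, PMEL, TYR and TYRP1 were below it in all 3 groups. The log2 of the markers' summed level ranged from 14.21 to 14.39 in WWOX cells, from 12.02 to 12.10 in WFPA cells and from 12.28 to 12.36 in EV cells. Epithelial, fibroblast and haematopoietic markers, 27 measured in all, were below that median in 19 cases in WWOX cells, 16 in WFPA cells and 18 in EV cells. The log2 of the summed level of the 10 epithelial markers ranged from 11.99 to 12.15 in WWOX cells, from 13.29 to 13.51 in WFPA cells and from 13.49 to 13.61 in EV cells, with the keratins KRT8 and KRT18 lower in WWOX cells than in both others and CDH1 at 4.54 in WWOX cells, 7.78 in WFPA cells and 4.67 in EV cells. That of the 10 fibroblast markers ranged from 9.61 to 9.72 in WWOX cells, from 9.504 to 9.626 in WFPA cells and from 9.69 to 9.91 in EV cells, although LUM was at 6.41 in WWOX cells, 2.07 in WFPA cells and 2.03 in EV cells and POSTN at 5.53 in WWOX cells, 7.55 in WFPA cells and 8.77 in EV cells. Of the 7 haematopoietic markers, CD14, CD3E, ITGAM, LYZ and MS4A1 were below it in all groups, and PTPRC averaged 5.48 in WWOX cells, 7.67 in WFPA cells and 9.88 in EV cells. The log2 of the haematopoietic markers' summed level ranged from 8.03 to 8.23 in WWOX cells, from 8.69 to 8.86 in WFPA cells and from 10.07 to 10.31 in EV cells. Whether these differences had a part in the results below was not tested.

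A dividing cell makes most of these proteins late in its cycle. Cyclin B with CDK1 starts mitosis, the Polo and Aurora kinases build the spindle, kinetochore proteins tie chromosomes to microtubules, and a checkpoint holds back the anaphase-promoting complex until every chromosome is attached. Transcription of the group is repressed in resting cells by the DREAM complex and driven in G2 by B-MYB and FOXM1, through a promoter element known as the cell cycle genes homology region (CHR). In bulk RNA such as this, fewer cells in G2 and mitosis and less RNA per cell cannot be told apart.

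Across the 53 genes, read by their brightest probe sets, WFPA cells had the lowest levels. The group mean was lowest in WFPA cells for 41 genes, in WWOX cells for 10 and in EV cells for 2, and it was highest in WWOX cells for 17, in WFPA cells for 5 and in EV cells for 31. When each gene was set against its own mean over the 9 arrays, the median gene stood at 0.06, 0.05 and 0.01 on the log2 scale in the WWOX arrays. It stood at -0.18, -0.15 and -0.18 in the WFPA arrays and at 0.12, 0.10 and 0.15 in the EV arrays. Between 27 and 35 of the genes were above their own mean in a WWOX array, between 6 and 11 in a WFPA array and between 44 and 48 in an EV array, so the 3 groups did not overlap in this count. Neither these counts nor those of the lowest and highest group mean were made over all 19775 genes. The median deviation over those 19775 genes lay between -0.03 and 0.05 in every array. The largest change in any comparison was 1.84-fold, and 24 of the 53 genes passed in none of the 4 comparisons.

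**Figure D1:**
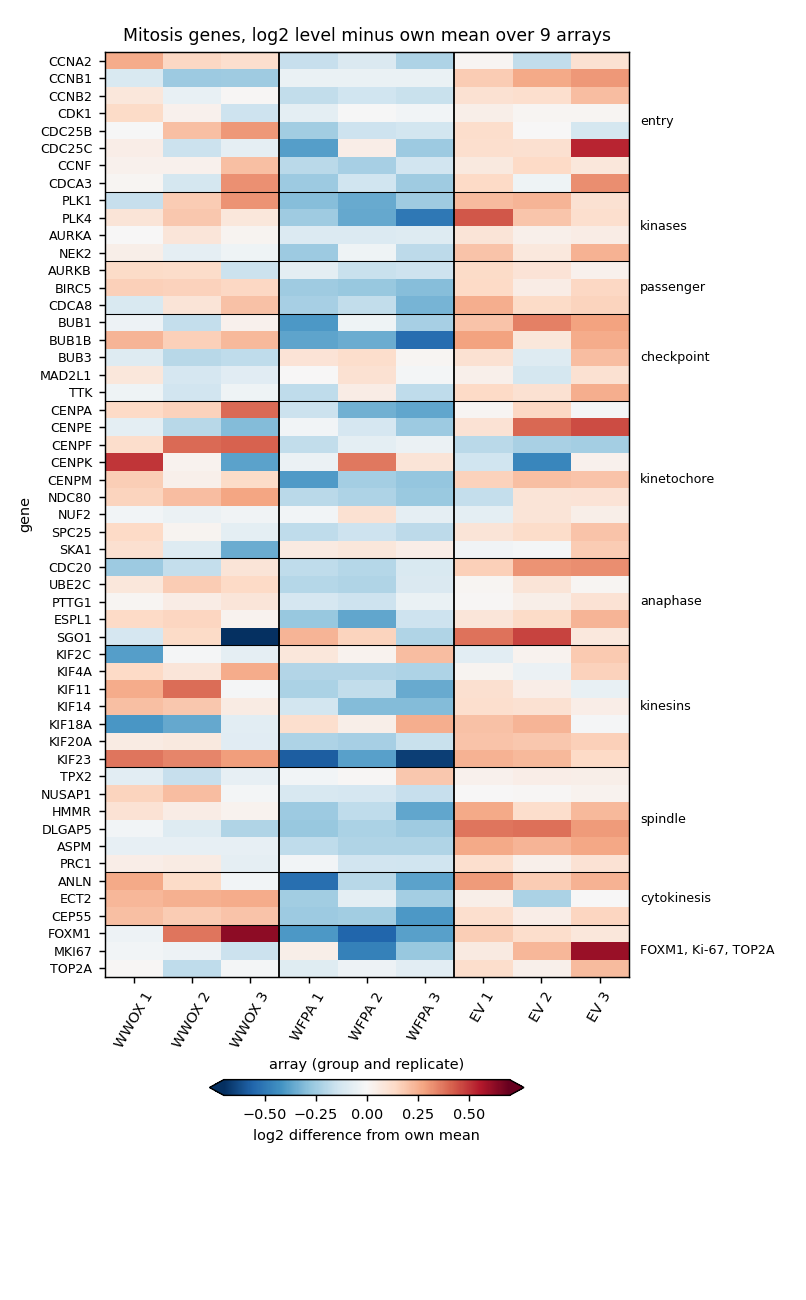
Log2 level of each of the 53 mitosis genes (rows, by role) in each of the 9 arrays (columns), minus the gene's own mean over all arrays, with red above and blue below that mean and colours clipped at the ends of the scale. The WFPA columns are mostly blue, with 6 to 11 genes above their own mean, against 27 to 35 in the WWOX columns and 44 to 48 in the EV columns.

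In WFPA cells, 16 of the 53 genes were lower than in EV cells and 0 were higher at a limma adjusted p under 0.05. At an unadjusted p under 0.05, 33 were lower and 0 higher, beside 11.4% lower and 11.4% higher of all genes. At the adjusted p, 3.67% of all 19775 genes were lower and 4.95% higher, and among the 10844 genes at least as bright as the dimmest of the 53, 5.75% were lower and 7.51% higher. At least 2-fold and past the same p were 2.23% of all genes and 0 of the 53. The median change of the 53 was -0.29 on the log2 scale, beside -0.04 over all genes, and 47 of the 53 changes were negative, beside 11339 of all 19775. All 3 WFPA arrays lay below all 3 EV arrays for 41 of the 53 (background 19.1%) and above them for 1 (background 16.3%), which was CENPF. Leaving out any 1 WFPA array left 6 to 9 lower genes and leaving out any 1 EV array 6 to 10, while limma-trend called 25.

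In WWOX cells, 19 of the 53 genes were higher than in WFPA cells and 1, KIF18A, was lower, beside 9.38% higher and 11.0% lower of all genes. Of the genes at least as bright as the dimmest of the 53, 13.2% were higher and 17.3% lower, and 4.73% of all genes changed at least 2-fold. The median change was 0.20 for the 53 and 0.07 for all genes. All 3 WWOX arrays were above all 3 WFPA arrays for 32 of the 53 (background 22.2%) and below them for 5 (background 18.5%). This comparison and the one of WFPA with EV share the WFPA arrays. The count of higher genes was 11 without WWOX replicate 2, and 10, 10 and 8 without WFPA replicate 1, 2 and 3. KIF18A was called in neither direction when any 1 WFPA or EV array, or WWOX replicate 1 or 2, was left out.

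Few of the 53 genes passed between WWOX and EV cells. In WWOX cells, CENPF was higher and CCNB1, CENPE, CDC20, DLGAP5 and ASPM were lower, which is 1 and 5 of 53, beside 6.96% higher and 7.86% lower of all genes. Among the bright genes the shares were 10.0% higher and 12.6% lower, and 3.90% of all genes changed at least 2-fold. The median change was -0.07 for the 53 and 0.03 for all genes. The count of lower genes was 2 to 3 without any 1 EV array or without WWOX replicate 2. It was 12 when the mean of all probe sets of a gene was used and 11 when the probe set of largest variance was used.

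Set against EV and WFPA cells together, 9 of the 53 were higher in WWOX cells, namely BIRC5, BUB1B, CENPA, CENPF, NDC80, KIF23, ECT2, CEP55 and FOXM1, and CCNB1 and KIF18A were lower. Over all genes, 9.49% were higher and 10.9% lower, among the bright genes 13.2% and 17.2%, and 4.01% changed at least 2-fold. The median change was 0.07 for the 53 and 0.04 for all genes. Without WWOX replicate 2 the 9 higher genes became 2 and the lower genes 0, and without WFPA replicate 1, 2 or 3 the higher genes became 5, 5 and 3. The lower genes were 1 without WWOX replicate 1, WFPA replicate 3, EV replicate 1 or EV replicate 2, and 8 with the mean of all probe sets of a gene.

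**Figure D2:**
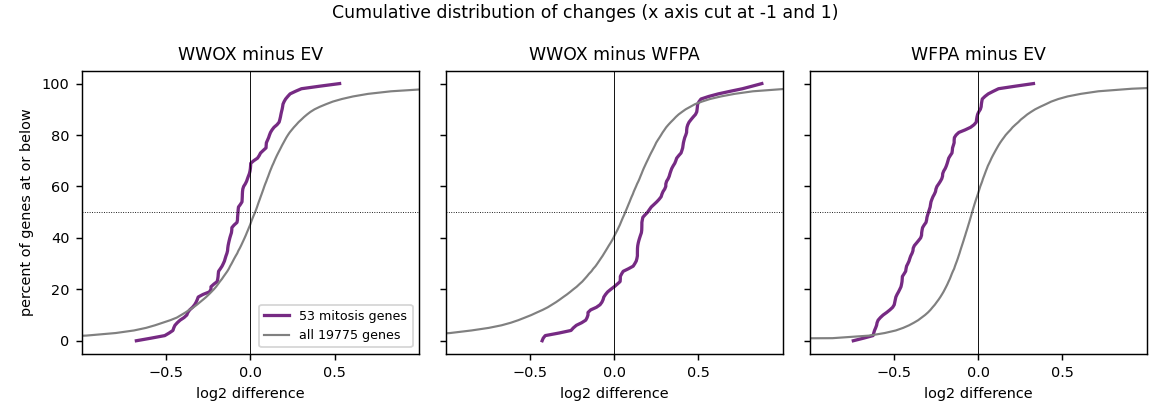
Cumulative share of genes (y axis, percent) at or below each log2 change (x axis, from -1 to 1), for the 53 mitosis genes (purple) and all 19775 genes (grey), in 3 comparisons. The median change of the mitosis genes is -0.07 in WWOX against EV cells, 0.20 in WWOX against WFPA cells and -0.29 in WFPA against EV cells.

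Mitotic entry was represented by 8 genes. By their brightest probe sets, 0 passed in WFPA against EV cells and 1 in each of the other 3 comparisons. Of all genes, 3.67% to 11.0% passed in a given direction and comparison. CCNB1 encodes cyclin B1, the partner of CDK1, and read 12.77, 12.62 and 12.62 in WWOX cells, 12.83 in all 3 WFPA arrays and 13.05, 13.14 and 13.18 in EV cells. All WWOX arrays were below all WFPA arrays, and these were below all EV arrays. The level in WWOX cells was 0.732 times that in EV cells (log2 change -0.45, SE 0.08, limma adjusted p = 0.00807), while WFPA against EV cells gave -0.29 (SE 0.08, adjusted p = 0.0748). The further, dimmer CCNB1 probe set did not pass in WWOX against EV cells (-0.22, adjusted p = 0.273), and its WFPA and EV arrays overlapped. CCNA2, cyclin A2 of S phase and G2, read 12.10, 11.99 and 11.96 in WWOX cells, 11.68, 11.74 and 11.63 in WFPA cells and 11.86, 11.67 and 11.95 in EV cells. It was the entry gene that rose in WWOX against WFPA cells (0.33, SE 0.10, adjusted p = 0.0477). CDK1 itself, the kinase that starts mitosis, read 12.13, 12.02 and 11.85 in WWOX cells, 11.93, 11.99 and 11.97 in WFPA cells and 12.03, 12.01 and 12.01 in EV cells. The WWOX arrays overlapped both other groups, and the WFPA arrays lay just below the EV arrays. Its changes ran from -0.05 to 0.04 over the 4 comparisons, with a 95% interval from -0.22 to 0.19 for WWOX against EV cells. CCNB2, the CDK1-activating phosphatases CDC25B and CDC25C, CCNF and CDCA3 passed in no comparison with their brightest probe sets.

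Among the mitotic kinases, PLK4, which starts centriole duplication, fell most in WFPA cells. It read 10.29, 10.40 and 10.29 in WWOX cells, 9.96, 9.85 and 9.70 in WFPA cells and 10.64, 10.40 and 10.32 in EV cells, with every WFPA array below the 6 others. The change was -0.62 in WFPA against EV cells (SE 0.11, adjusted p = 0.0113) and 0.49 in WWOX against WFPA cells (SE 0.11, adjusted p = 0.0166). PLK1, a kinase of spindle poles and kinetochores, read 9.77, 10.11 and 10.25 in WWOX cells, 9.64, 9.58 and 9.68 in WFPA cells and 10.15, 10.17 and 10.04 in EV cells. It fell in WFPA against EV cells (-0.49, SE 0.12, adjusted p = 0.0494) and did not pass in WWOX against WFPA cells (0.41, SE 0.12, adjusted p = 0.052). AURKA, Aurora A of the centrosome, read 13.40, 13.49 and 13.42 in WWOX cells, 13.30, 13.30 and 13.31 in WFPA cells and 13.49, 13.44 and 13.45 in EV cells. All 3 WFPA arrays were below the other 6, but the change of -0.15 against EV cells (SE 0.08) did not pass (adjusted p = 0.312). Neither AURKA nor the centrosome kinase NEK2 passed in any comparison with its brightest probe set.

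The chromosomal passenger complex carries Aurora B to the centromere and then to the spindle midzone. BIRC5, its subunit survivin, read 14.12, 14.12 and 14.10 in WWOX cells, 13.70, 13.68 and 13.66 in WFPA cells and 14.09, 14.00 and 14.10 in EV cells. It rose in WWOX against WFPA cells (0.43, SE 0.08, adjusted p = 0.00492) and fell in WFPA against EV cells (-0.38, SE 0.08, adjusted p = 0.0176), and the lowest WWOX array (14.0997) and the highest EV array (14.0994) were almost level. CDCA8, the subunit borealin, read 10.57, 10.77 and 10.88 in WWOX cells, 10.44, 10.50 and 10.35 in WFPA cells and 10.93, 10.81 and 10.83 in EV cells. It fell in WFPA against EV cells (-0.43, SE 0.10, adjusted p = 0.0404). The kinase gene AURKB passed in no comparison.

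Of the 5 checkpoint genes, BUB1B changed most. It encodes BUBR1, part of the inhibitor of the anaphase-promoting complex, and read 10.55, 10.48 and 10.54 in WWOX cells, 9.94, 9.97 and 9.78 in WFPA cells and 10.60, 10.39 and 10.58 in EV cells. WFPA cells held 0.649 times the EV level (-0.62, SE 0.09, adjusted p = 0.00504), and WWOX cells 1.54 times the WFPA level (0.63, SE 0.09, adjusted p = 0.00221). WWOX and EV cells differed by 0.00 (95% interval -0.21 to 0.21). The checkpoint kinase gene BUB1 also fell in WFPA against EV cells with the brightest of its 5 probe sets (-0.50, SE 0.11, adjusted p = 0.0322). None of the others passed in this comparison (-0.42 to -0.10, adjusted p from 0.443 to 0.824). BUB3, the WD-repeat partner of BUBR1 and BUB1, read 12.91, 12.81 and 12.83 in WWOX cells, 13.10, 13.13 and 13.02 in WFPA cells and 13.11, 12.91 and 13.22 in EV cells. It passed in no comparison with its brightest probe set, like MAD2L1 and TTK.

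Of the 9 centromere and kinetochore genes, 4 were higher and 0 lower in WWOX against WFPA cells, 0 higher and 1 lower in WFPA against EV cells, and 1 higher and 1 lower in WWOX against EV cells. The shares of all genes higher and lower in these comparisons were 9.38% and 11.0%, 4.95% and 3.67%, and 6.96% and 7.86%. CENPA, the histone H3 variant that marks the centromere, read 10.34, 10.36 and 10.60 in WWOX cells, 10.05, 9.86 and 9.83 in WFPA cells and 10.21, 10.35 and 10.19 in EV cells, and rose in WWOX against WFPA cells (0.52, SE 0.11, adjusted p = 0.0106). CENPF, a large protein of the outer kinetochore, read 11.24, 11.52 and 11.53 in WWOX cells, 10.95, 11.05 and 11.08 in WFPA cells and 10.93, 10.89 and 10.88 in EV cells. It was the 1 gene of the 53 that was higher in WWOX than in EV cells (0.53, SE 0.10, adjusted p = 0.00894), and all WWOX arrays lay above the other 6. Its further probe sets did not pass in this comparison (0.23, adjusted p = 0.188, and -0.62, adjusted p = 0.333). CENPE, the kinesin that moves chromosomes to the spindle equator, read 8.57, 8.44 and 8.33 in WWOX cells, 8.61, 8.52 and 8.38 in WFPA cells and 8.73, 9.04 and 9.09 in EV cells. It fell in WWOX against EV cells (-0.51, SE 0.12, adjusted p = 0.0261), and the WWOX and WFPA arrays overlapped. CENPM (0.42, adjusted p = 0.00969) and NDC80 (0.44, adjusted p = 0.0143), a subunit of the complex that grips microtubules, also rose in WWOX against WFPA cells, and CENPM fell in WFPA against EV cells (-0.49, adjusted p = 0.00905). CENPK, NUF2, SPC25 and SKA1 passed in no comparison, and CENPK had the widest spread of the 9 in WWOX cells, at 9.79, 9.32 and 8.92.

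At anaphase onset, CDC20, the activator of the anaphase-promoting complex, was lower than in EV cells both in WWOX cells (-0.38, SE 0.11, adjusted p = 0.0498) and in WFPA cells (-0.43, SE 0.11, adjusted p = 0.0453). ESPL1, the protease separase, fell in WFPA against EV cells (-0.41, adjusted p = 0.032) and rose in WWOX against WFPA cells (0.36, adjusted p = 0.0286). UBE2C, the ubiquitin-conjugating enzyme of the complex, read 13.06, 13.16 and 13.12 in WWOX cells, 12.78, 12.76 and 12.87 in WFPA cells and 12.99, 13.07 and 12.99 in EV cells, and rose in WWOX against WFPA cells (0.31, SE 0.08, adjusted p = 0.0303). SGO1, the guardian of centromeric cohesin, had the largest difference between WWOX and EV cells without passing. It read 6.70, 6.95 and 5.70 in WWOX cells, 7.05, 6.97 and 6.61 in WFPA cells and 7.20, 7.29 and 6.89 in EV cells, with WWOX replicate 3 the lowest of the 9 arrays, and the change was -0.68 in WWOX against EV cells (SE 0.29, adjusted p = 0.187). Securin, PTTG1, passed in no comparison.

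Kinesins move chromosomes, slide spindle microtubules and build the midzone, and this group held the largest change of all 53 genes. KIF23, the motor of the centralspindlin complex in cytokinesis, read 10.12, 10.09 and 10.04 in WWOX cells, 9.17, 9.36 and 9.09 in WFPA cells and 9.99, 9.97 and 9.88 in EV cells. The groups were ordered without overlap, although the difference of 0.13 between WWOX and EV cells did not pass (SE 0.09, adjusted p = 0.42). WWOX cells held 1.84 times the WFPA level (0.88, SE 0.09, adjusted p = 0.000341), and WFPA cells 0.598 times the EV level (-0.74, SE 0.09, adjusted p = 0.00213). KIF18A, which dampens chromosome movement at the metaphase plate, went the other way, with 8.956, 9.005 and 9.293 in WWOX cells, 9.48, 9.40 and 9.62 in WFPA cells and 9.57, 9.60 and 9.36 in EV cells. All WWOX arrays were below the other 6 (-0.42 against WFPA cells, SE 0.12, adjusted p = 0.045, and -0.42 against EV cells, adjusted p = 0.0521). KIF4A, KIF11 and KIF14 rose in WWOX against WFPA cells by 0.37 to 0.46, KIF20A fell in WFPA against EV cells (-0.39, adjusted p = 0.0222), and KIF2C passed in no comparison.

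Among the 6 spindle microtubule proteins, DLGAP5, which stabilises kinetochore fibres, was lower than in EV cells in both WWOX and WFPA cells. It read 11.09, 11.02 and 10.91 in WWOX cells, 10.85, 10.89 and 10.87 in WFPA cells and 11.49, 11.50 and 11.42 in EV cells, a change of -0.46 in WWOX against EV cells (SE 0.08, adjusted p = 0.00735) and -0.60 in WFPA against EV cells (SE 0.08, adjusted p = 0.00345). ASPM, a protein of spindle poles, had the same order, at 10.46 in all 3 WWOX arrays, 10.34, 10.31 and 10.31 in WFPA cells and 10.79, 10.76 and 10.79 in EV cells (-0.32 in WWOX against EV cells, adjusted p = 0.022, and -0.46 in WFPA against EV cells, adjusted p = 0.0065). For both genes every EV array was above the other 6. HMMR fell in WFPA against EV cells (-0.47, adjusted p = 0.013) and rose in WWOX against WFPA cells (0.32, adjusted p = 0.0337). NUSAP1, which bundles microtubules, read 12.95, 13.01 and 12.78 in WWOX cells, 12.68, 12.68 and 12.63 in WFPA cells and 12.80, 12.81 and 12.82 in EV cells. It passed in no comparison with its brightest probe set, like TPX2 and PRC1.

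By their brightest probe sets, all 3 cytokinesis genes rose in WWOX against WFPA cells, beside 9.38% of all genes. CEP55, which recruits the membrane-cutting machinery to the midbody, read 13.24, 13.21 and 13.23 in WWOX cells, 12.78, 12.78 and 12.63 in WFPA cells and 13.15, 13.07 and 13.18 in EV cells (0.50, SE 0.08, adjusted p = 0.00376). ANLN, the scaffold of the contractile ring, read 12.03, 11.91 and 11.75 in WWOX cells, 11.24, 11.58 and 11.39 in WFPA cells and 12.07, 11.95 and 12.01 in EV cells (0.49, SE 0.11, adjusted p = 0.0178). For both, every WFPA array was below the other 6, and both fell in WFPA against EV cells (-0.40, adjusted p = 0.0211 for CEP55, and -0.60, adjusted p = 0.014 for ANLN). ECT2, the RhoA activator that positions the ring, read 11.68, 11.70 and 11.71 in WWOX cells, 11.21, 11.39 and 11.21 in WFPA cells and 11.49, 11.23 and 11.46 in EV cells. It rose in WWOX against WFPA cells (0.43, SE 0.10, adjusted p = 0.0179), with the WFPA and EV arrays overlapping. Its further probe sets did not pass in this comparison (0.18, adjusted p = 0.325, and -0.19, adjusted p = 0.801).

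FOXM1, the transcription factor of G2, read 10.74, 11.15 and 11.40 in WWOX cells, 10.37, 10.22 and 10.39 in WFPA cells and 10.95, 10.90 and 10.85 in EV cells. WWOX cells held 1.70 times the WFPA level (0.77, SE 0.15, adjusted p = 0.00919), while the WFPA change against EV cells of -0.57 (SE 0.15) had an adjusted p of 0.0614. The WWOX arrays reached both above and below the EV arrays. MKI67, the proliferation marker Ki-67, read 8.86, 8.84 and 8.73 in WWOX cells, 8.92, 8.40 and 8.61 in WFPA cells and 8.94, 9.11 and 9.48 in EV cells, and TOP2A, topoisomerase II alpha, read 11.23, 11.04 and 11.20 in WWOX cells, 11.13, 11.18 and 11.14 in WFPA cells and 11.34, 11.26 and 11.44 in EV cells. Every EV array was above the other 6 for both genes, but neither passed in any comparison with its brightest probe set (WFPA against EV cells, -0.53, adjusted p = 0.103 for MKI67 and -0.19, adjusted p = 0.293 for TOP2A).

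**Figure D3:**
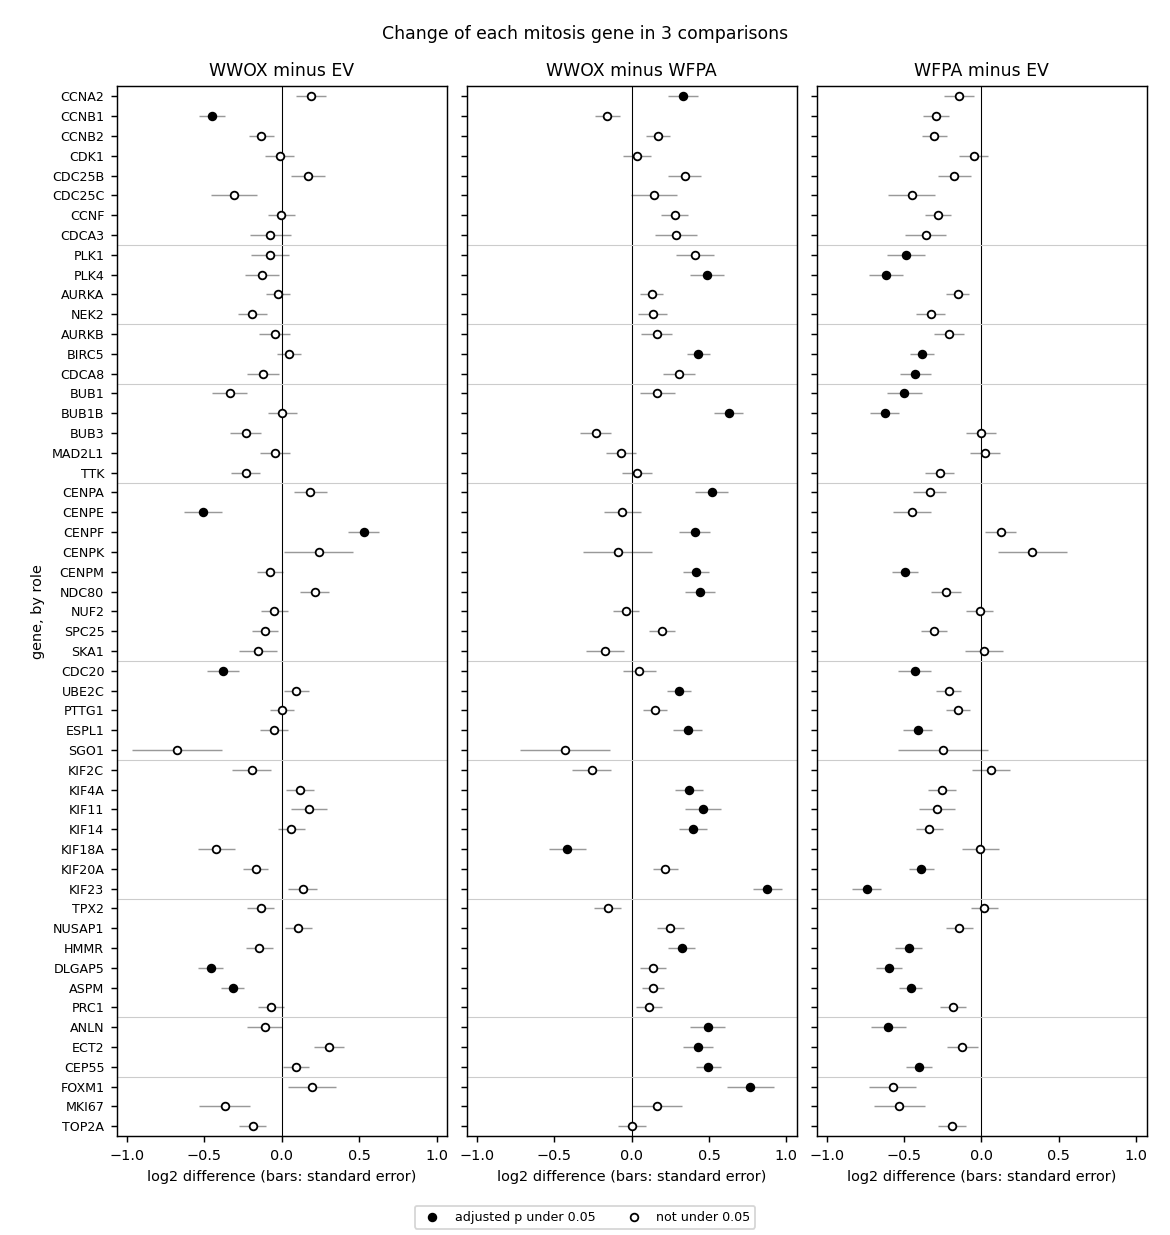
Log2 change of each of the 53 mitosis genes (rows, by role) in WWOX against EV, WWOX against WFPA and WFPA against EV cells (panels), with bars for the standard error and filled points for a limma adjusted p under 0.05. Filled points number 1 higher and 5 lower, 19 higher and 1 lower, and 0 higher and 16 lower in the 3 panels.

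A total of 28 of the 53 genes carried 50 further, dimmer probe sets, 2 of them with a mean below the lower quartile of the arrays. In WFPA against EV cells these gave 0 higher and 11 lower, with a median of -0.33. In WWOX against WFPA cells they gave 9 higher and 3 lower, with a median of -0.07, and in WWOX against EV cells 0 higher and 12 lower, with a median of -0.29. In WWOX against EV and WFPA cells together they gave 2 higher and 13 lower, with a median of -0.15. For scale, the brightest sets of all 19775 genes passed upward in 4.95% and downward in 3.67% for WFPA against EV. For WWOX these shares were 9.38% and 11.0% against WFPA, 6.96% and 7.86% against EV, and 9.49% and 10.9% against both. A share over dimmer sets alone is not given, so the counts of dimmer sets have no background of their own kind. A lower level in WFPA than in EV cells was seen with both kinds of probe set. In WWOX against WFPA cells the dimmer sets were mixed, with more called higher than lower but a median just below 0. Counted by gene, 14 of the 53 were higher and 2 lower in WWOX than in WFPA cells with the probe set of largest variance. With the mean of all probe sets of a gene, 15 were higher and 1 lower. Of the 50 dimmer sets, 26 had a negative change in WWOX against WFPA cells, and they stood lower in WWOX cells than the brightest did. In no gene were probe sets called in opposite directions within 1 comparison.

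CDK1 is an example. Its brightest probe set did not differ between WWOX and EV cells, whereas the 3 others were lower in WWOX cells by 0.43 to 0.51 on the log2 scale, and the one with the largest change read 11.21, 11.11 and 11.08 in WWOX cells, 11.33 in all 3 WFPA arrays and 11.56, 11.74 and 11.62 in EV cells (-0.51, SE 0.08, adjusted p = 0.00483). The second brightest probe set of TOP2A read 10.64, 10.45 and 10.23 in WWOX cells, 10.68, 10.83 and 10.98 in WFPA cells and 11.13, 11.22 and 11.19 in EV cells (-0.74 in WWOX against EV cells, SE 0.12, adjusted p = 0.00477). For BUB3, 2 further sets were lower in WWOX than in EV cells by 0.78 (adjusted p = 0.00116) and 0.79 (adjusted p = 0.00635), and for ASPM both further sets were lower, at -0.63 and -0.84. In WWOX against WFPA cells, BUB3 sets were lower by 0.54 (adjusted p = 0.00647) and 0.53 (adjusted p = 0.0169). The latter did not pass without WFPA replicate 2 (adjusted p = 0.0596) or WFPA replicate 3 (adjusted p = 0.0575). Further sets also passed where the brightest did not. A NEK2 set (-0.63, adjusted p = 0.0106) and a NUSAP1 set (-0.62, adjusted p = 0.0419) were lower in WWOX than in EV cells. A CDC25C set was lower in WWOX than in WFPA cells (-0.93, adjusted p = 0.0478). A CCNA2 set (-0.53, adjusted p = 0.0264) and a CDCA3 set (-0.51, adjusted p = 0.013) were lower in WFPA than in EV cells. The single change past 2-fold was in BUB1, where 1 further set read 7.57, 7.45 and 6.47 in WWOX cells, 7.98, 7.71 and 7.91 in WFPA cells and 8.39, 8.09 and 8.37 in EV cells (-1.12, SE 0.26, adjusted p = 0.0222, but 0.0753 without EV replicate 1 and 0.0749 without EV replicate 3). BIRC5 and ANLN gave the same low WFPA arrays with every probe set, and the further BIRC5 sets fell by 0.37 to 0.92 in WFPA against EV cells, the smallest of these changes not passing without any 1 WFPA or EV array (adjusted p from 0.0583 to 0.0991). Which transcripts the sets of 1 gene detect was not tested.

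**Figure D4:**
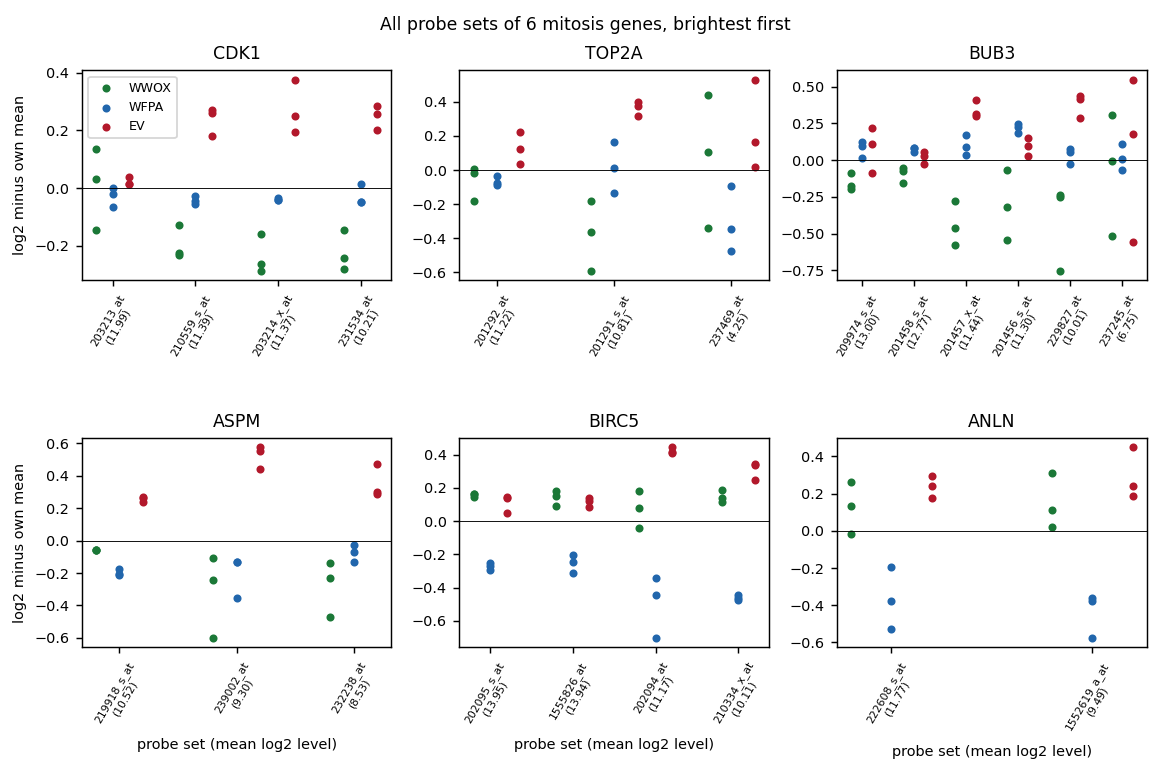
Log2 level minus the probe set's own mean (y axis, a scale of its own in each panel) for every probe set of 6 mitosis genes (x axis, brightest first, mean log2 level in brackets), with 1 point per array and WWOX, WFPA and EV drawn from left to right in green, blue and red. For CDK1, TOP2A, BUB3 and ASPM at least 1 dimmer set places WWOX cells further below EV cells than the brightest set does, while for BIRC5 and ANLN the WFPA arrays are lowest with every set.

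RefSeq promoters of GRCh38.p14, from 250 bases before to 50 bases after the start, were found for 45 of the 53 genes and not for AURKA, BIRC5, BUB3, TTK, CENPM, UBE2C, TPX2 and FOXM1. The CHR, searched as TTTGAA or TTCGAA on both strands, was present in 34 of the 45 (75.6%), beside 16.4% of all 35116 promoters. The CCAAT box, searched as CCAAT on both strands, was present in 35 (77.8%, beside 34.6%), and both in 28 (62.2%, beside 6.38%). Neither motif contains the other. The 8 windows below, of 60 bases each, come from the named genes with a CHR before the start that changed most between WFPA and EV cells, and the capitals mark the CHR letters on either strand.
KIF23: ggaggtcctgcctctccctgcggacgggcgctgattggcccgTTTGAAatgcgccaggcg
BUB1B: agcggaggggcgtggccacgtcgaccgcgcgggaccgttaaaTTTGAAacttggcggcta
ANLN: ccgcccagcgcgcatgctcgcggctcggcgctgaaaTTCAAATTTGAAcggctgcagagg
DLGAP5: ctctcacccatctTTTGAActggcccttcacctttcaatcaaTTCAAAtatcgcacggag
MKI67: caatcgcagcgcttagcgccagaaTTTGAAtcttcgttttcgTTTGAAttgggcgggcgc
PLK1: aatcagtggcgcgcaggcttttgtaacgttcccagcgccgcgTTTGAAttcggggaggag
CDCA8: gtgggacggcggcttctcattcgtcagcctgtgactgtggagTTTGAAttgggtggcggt
CEP55: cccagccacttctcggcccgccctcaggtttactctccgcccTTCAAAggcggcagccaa
They lie at chr15:69414252-69414311 (KIF23, plus strand, CHR 55 bases before the start), chr15:40161004-40161063 (BUB1B, plus strand, CHR 23 bases before the start), chr7:36389800-36389859 (ANLN, plus strand, CHR 20 bases before the start), chr14:55191677-55191736 (DLGAP5, minus strand, CHR 109 bases before the start), chr10:128126435-128126494 (MKI67, minus strand, CHR 29 bases before the start), chr16:23678818-23678877 (PLK1, plus strand, CHR 29 bases before the start), chr1:37692451-37692510 (CDCA8, plus strand, CHR 23 bases before the start) and chr10:93496454-93496513 (CEP55, plus strand, CHR 116 bases before the start). In KIF23, BUB1B, PLK1 and CDCA8 a single TTTGAA stands within 55 bases of the start, whereas the ANLN, DLGAP5 and MKI67 windows hold 2 matches each. Outside the windows shown, CEP55 had a further match at position -3 from the start and DLGAP5 at position 3.

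Genes with the CHR letters were compared with those without, as a description and with no test. The 34 with it had a median change of -0.32 in WFPA against EV cells, and 13 were lower and 0 higher, and the 11 without it had -0.21, with 1 lower and 0 higher. In WWOX against WFPA cells the medians were 0.28 with it, where 14 rose and 1 fell, and 0.14 without it, where 1 rose and 0 fell. In WWOX against EV cells they were -0.07 with it (1 higher, 3 lower) and -0.17 without it (0 higher, 2 lower). Of all 19775 genes, 4.95% were higher and 3.67% lower in WFPA against EV cells. For WWOX cells these shares were 9.38% and 11.0% against WFPA cells, and 6.96% and 7.86% against EV cells. CCNA2, CCNB1 and CENPE were among those without the letters in this window.

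Other cell cycle genes were read from lists written by hand. For each list below, the share of all 19775 genes was 4.95% higher and 3.67% lower in WFPA against EV cells. It was 9.38% and 11.0% in WWOX against WFPA cells, and 6.96% and 7.86% in WWOX against EV cells. Of 90 further genes measured on a mitosis list, 1 was higher and 16 lower in WFPA against EV cells (1.11% and 17.8%, median -0.18). In WWOX against WFPA cells 20 were higher and 8 lower (22.2% and 8.89%, median 0.11). The 90 include DHDDS, which is not a mitosis gene and is 1 of these 8 (-0.46, limma adjusted p = 0.00721). In WWOX against EV cells 3 were higher and 8 lower (3.33% and 8.89%, median -0.07). PBK, a mitotic kinase, read 11.68, 11.62 and 11.65 in WWOX cells, 10.62, 10.64 and 10.62 in WFPA cells and 11.06, 11.16 and 11.13 in EV cells. It was higher in WWOX cells than in both others and lower in WFPA cells than in EV cells (-0.49, SE 0.08, adjusted p = 0.0056). SPDL1, spindly, which recruits dynein to kinetochores, went the other way in WWOX cells, at 10.21, 10.05 and 9.81 in WWOX cells, 10.52, 10.52 and 10.60 in WFPA cells and 11.28, 11.37 and 11.23 in EV cells (-1.27 in WWOX against EV cells, SE 0.11, adjusted p = 0.000111). PKMYT1, which inhibits CDK1, was 0.72 higher in WWOX cells than in EV and WFPA cells together (adjusted p = 0.0406), with 8.95, 9.07 and 9.98 in the WWOX arrays. Without WWOX replicate 3 the difference was 0.40 (adjusted p = 0.02), and without any 1 WFPA or EV array it did not pass (adjusted p from 0.0651 to 0.0804). CDC26, a subunit of the anaphase-promoting complex, was lower by 0.70.

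Of 67 G1/S and DNA replication genes measured, 3 were higher and 16 lower in WFPA against EV cells (4.48% and 23.9%, median -0.24). In WWOX against WFPA cells 20 were higher and 3 lower (29.9% and 4.48%, median 0.20). In WWOX against EV cells 6 were higher and 6 lower (8.96% each, median -0.07). The medians of the 53 mitosis genes in these comparisons were -0.29, 0.20 and -0.07. E2F1, the activator of S phase genes, read 12.42, 12.24 and 12.01 in WWOX cells, 11.14, 11.28 and 11.27 in WFPA cells and 11.81, 11.78 and 11.93 in EV cells. WWOX cells held the highest and WFPA cells the lowest levels without overlap, and the change was 0.99 in WWOX against WFPA cells (SE 0.12, adjusted p = 0.000529) and -0.62 in WFPA against EV cells (SE 0.12, adjusted p = 0.0137, but 0.0615 without WFPA replicate 1 and 0.0589 without EV replicate 3). CDK6, a G1 kinase, differed from this order, at 9.52, 9.40 and 9.60 in WWOX cells, 8.99, 8.83 and 9.17 in WFPA cells and 7.49, 7.81 and 7.94 in EV cells, with WFPA above EV cells (1.25, SE 0.14, adjusted p = 0.000983). The replicative DNA ligase gene LIG1 and the helicase gene MCM2 were higher in WWOX than in EV and WFPA cells together by 1.67 and 0.65.

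Among 26 CDK inhibitors, pocket proteins and DREAM subunits measured, 1 was higher and 1 lower in WFPA against EV cells (3.85% each). In WWOX against WFPA cells 2 were higher and 5 lower (7.69% and 19.2%). In WWOX against EV cells 2 were higher and 2 lower (7.69% each). GADD45A, a stress-induced growth arrest gene, read 11.93, 11.87 and 11.52 in WWOX cells, 12.91, 12.97 and 12.92 in WFPA cells and 12.88, 12.77 and 12.79 in EV cells, and E2F7, an E2F repressor, read 10.25, 10.23 and 9.84 in WWOX cells, 11.04, 11.17 and 11.03 in WFPA cells and 11.09, 11.22 and 11.18 in EV cells. Both were lower in WWOX cells than in EV and WFPA cells together, by 1.10 and 1.02 on the log2 scale (adjusted p = 0.000117 and 0.000246). The CDK4 and CDK6 inhibitor gene CDKN2B and the E2F family gene E2F5 were lower by 0.60 each. For E2F5 (adjusted p = 0.03) the difference was -0.39 without WWOX replicate 3 (adjusted p = 0.0587), and it did not pass without WFPA replicate 1 or 2 or EV replicate 1 or 3 (adjusted p from 0.0606 to 0.0621). Of 11 reference genes, 1 was higher and 0 lower in WFPA against EV cells, 1 was higher and 0 lower in WWOX against WFPA cells, and 2 were higher and 0 lower in WWOX against EV cells.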

How the data were processed

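The authors hybridised total RNA to the arrays and used Partek Genomics Suite 6.5 for their normalization, and they deposited a log2 intensity per probe set for each of the 9 arrays. The background and normalization methods are not given in the sources used here, and no further normalization was applied. Of 54675 probe sets, 62 array controls were left out, and the 54613 tested split into 41091 with 1 annotated gene, 1801 with several and 11721 with none. In limma 3.58.1 (R 4.3.3) 1 model held the means of the 3 groups (6 residual degrees of freedom, 3.04 from the prior). Contrasts set WWOX against EV, WFPA and the mean of both, and WFPA against EV. A gene was called higher or lower at a Benjamini-Hochberg adjusted p under 0.05 over all probe sets tested, without a fold limit, and counts at 2-fold are given beside. A standard error (SE) and a 95% interval are those of limma, and an SD is that of 3 arrays. Precision is limited by 3 arrays per group. Levels are comparable between groups for 1 probe set, not between probe sets. The genes and all lists were chosen with earlier results of these data known, so no score over the genes was tested. Values by array are given for CDK1, CCNB1, PLK1, AURKA, FOXM1, MKI67 and TOP2A, for the 2 genes of each role with the largest change in WWOX against EV and WFPA, and for the 5 with the largest change in each other comparison, with CENPK, ASPM and further probe sets chosen after their values were seen. From each other cell cycle list up to 4 genes with the largest change among those called in WWOX against EV and WFPA are named. The limma fit was tested on simulated data. The alternatives tried were plain, trended and robust models, Bonferroni adjustment, a filter on dim probe sets, median and quantile scaling, a single group of EV and WFPA arrays, a replicate block, leaving out single arrays, and other probe sets per gene.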

Additional observations from a re-analysis of the deposited data

How the results depend on the processing

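Under 21 alternatives, the log2 changes of the 25 genes given by array stayed on the same side of the threshold in 1746 cases, of which 44 that passed in neither fit turned sign, and 219 were weaker, 51 stronger and 9 of opposite sign with a pass in at least 1 of the fits. Of the 44, 24 came from other alternatives than the probe set choice, with no change over 0.0769 in size, and 20 from the probe set choice, among them ECT2 against EV (-0.80 in place of 0.31) and NUSAP1 against EV and WFPA (-0.45 in place of 0.18), both with the largest variance. In WWOX against EV and WFPA cells, the 9 higher genes were 15 with limma-trend, 2 with EV and WFPA as 1 group, 2 with the replicate block and 2 to 9 without 1 array, and the 2 lower were 1 with EV and WFPA as 1 group, 0 with the replicate block, 0 to 2 without 1 array and 8 with the probe set of largest variance or the mean of all probe sets. The median became -0.10 and 0.0148 with these last choices. In WWOX against EV cells, the 1 higher gene was 2 with limma-trend and 0 with either probe set choice, and the 5 lower were 3 with the plain 1-way model, 2 with the replicate block, 2 to 5 without 1 array, 11 with the largest variance and 12 with the mean, with medians of -0.23 and -0.13. In WWOX against WFPA cells, the 19 higher genes were 8 to 19 without 1 array, and the 1 lower gene was 2 with limma-trend or the largest variance, 0 with the plain 1-way model, quantile normalization or the replicate block and 0 to 1 without 1 array, while the median was 0.25 with quantile normalization, 0.17 to 0.25 without 1 array, 0.12 with the largest variance and 0.14 with the mean. In WFPA against EV cells, the 16 lower genes were 25 with limma-trend, 8 with the replicate block and 6 to 21 without 1 array, the 0 higher stayed 0 under every alternative, and the median was -0.35 with the largest variance. With Bonferroni adjustment, or at 2-fold, 0 genes passed in any comparison and direction. Where a change passed in at least 1 fit, the probe set of largest variance turned the sign of CDK1 (-0.35), CENPF (-0.71) and ECT2 (-0.50) against EV and WFPA, CENPF (-0.62) and NUSAP1 (-0.62) against EV, and CENPF (-0.80) and ECT2 (-0.19) against WFPA, and the mean of all probe sets that of CDK1 (-0.24) and ECT2 (-0.0507) against EV and WFPA. For CENPF that set averaged log2 4.74, and the cause was not tested. Over all probe sets, deviations of same-numbered arrays from their group means had correlations of -0.05 to 0.03. Those of other-numbered arrays ran from -0.09 to 0.08. The titles do not say what the numbers mean, and these correlations cannot exclude that they pair the arrays. Leaving out single arrays for genes of the other lists and for further probe sets was added after seeing the data.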
